A study of Mus musculus with 3 samples.

Results

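The genes described here are 7 chemokine receptors of macrophages, Ccr1, Ccr2, Ccr3, Ccr7, Ccrl2, Cx3cr1, and Cxcr4. They were found by the gene name that the array gives to each probe, which selected 9 probes for the 7 genes out of 34813 gene names measured. BMDMs are macrophages grown from bone marrow, here of C57BL/6J mice, for 4 to 6 days with M-CSF (10 units/ml). One group received CpG at 0.063 μg/ml, another received 100 U/ml of IFN-γ together with αIL-10R, and a last one, called Triple, received every agent, each for 20 h. CpG is DNA that stimulates TLR9, and αIL-10R, written IL-10RB in the labels, is an antibody that blocks the IL-10 receptor. The comparison asks which transcripts separate Triple, the combination whose effect on the uptake of live cells the study examined, from stimulation with some of the agents. The study's uptake assays used a higher dose of CpG than the arrays. All 3 groups were stimulated, and no array of unstimulated cells was analysed here. Each group was 1 array, so that no value below has a replicate check, and no p-value is given.

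Chemokine receptors are membrane proteins with several passes through the membrane that couple to G proteins of the Gi class and steer leukocytes along gradients of chemokines. The set of receptors on a macrophage changes with its state: circulating monocytes are known for Ccr2 or Cx3cr1, whereas Ccr7 is the receptor by which dendritic cells enter lymph vessels. Ccrl2 is an atypical member, which binds chemerin (Rarres2) and is not known to signal through G proteins.

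The probes are 60 bases long, and the first 30 bases are shown for those on which the differences below rest. For the Cx3cr1 probes, capitals mark bases that probes 1 and 2 have in common. Probe 2 starts 5 bases after probe 1 and shares 55 bases with it, so that these probes are not independent measurements of Cx3cr1, whereas probe 3 is a separate sequence.
Cx3cr1 probe 1: cgtgcCTAGAGTGTGTCTATCCCACTTGTA
Cx3cr1 probe 2: CTAGAGTGTGTCTATCCCACTTGTAATTCT
Cx3cr1 probe 3: caagaatgtcttcatgcattcactgactcc
Ccr7 probe: cagccactgatacctttcctcatgttctgc
Ccrl2 probe: gcaggaggcatctcacaaatgcaagtataa
Ccr2 probe: gaagcagggacagaattcttgctttgaaaa
Ccr3 probe: accggccctcacataccaaatagaggatgt
In the array's mm9 coordinates, the Ccr7 probe lay at chr11:99005551-99005610 and the Ccrl2 probe at chr9:110957397-110957456. The Ccr2 probe lay at chr9:124022948-124023007, the Ccr3 probe at chr9:123945225-123945284, and the third Cx3cr1 probe at chr9:119959018-119959077. The exon or UTR under a probe was not looked up, because no gene models of mm9 were used.

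Values are the scanner software's processed signals, which are linear intensities, given with the software's own error of each signal. Between 44.4% and 46.0% of the spots per array were well above background, and the lowest signal that was so lay between 23.8 and 26.7. The arrays shared 1 slide and 1 scan. Before folds were taken, each array was divided by its 75th percentile (4401 to 4580), computed from probes detected above background everywhere. A fold is followed by its log2 value ± the SD expected from spot noise, which came from replicate spots of probes of like brightness on the same arrays. A fold against a signal near background carries the words at least, and it was taken against the higher of that signal and the lowest one on its array that was well above background. The SD leaves out differences between cultures, animals, and hybridizations. Each member probe was in 1 spot.

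The receptors did not move together. Relative to IFN-γ + αIL-10R, Triple had more than 2-fold higher signals for 3 of the 7 receptors, Ccr3, Ccr7, and Ccrl2, where 6.6% of all genes tested were higher. It had more than 2-fold lower signals for 2 of the 7, Ccr2 and Cx3cr1, where 9.3% of all genes were lower. CpG relative to IFN-γ + αIL-10R was higher for 3 of the 7, Ccr3, Cx3cr1, and Cxcr4 (5.04% of all genes), and lower for 2 of the 7, Ccr2 and Ccrl2 (5.84% of all genes). Triple relative to CpG was higher for 2 of the 6 receptors with a fold, Ccr7 and Ccrl2 (7.54% of all genes). It was lower for 4 of those 6, Ccr2, Ccr3, Cx3cr1, and Cxcr4 (8.37% of all genes). Ccr1 had no fold in that comparison, and it was not well above background on 2 of the 3 arrays. Each pair of comparisons shares an array, so the sets of folds are not independent of each other.

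**Figure D1:**
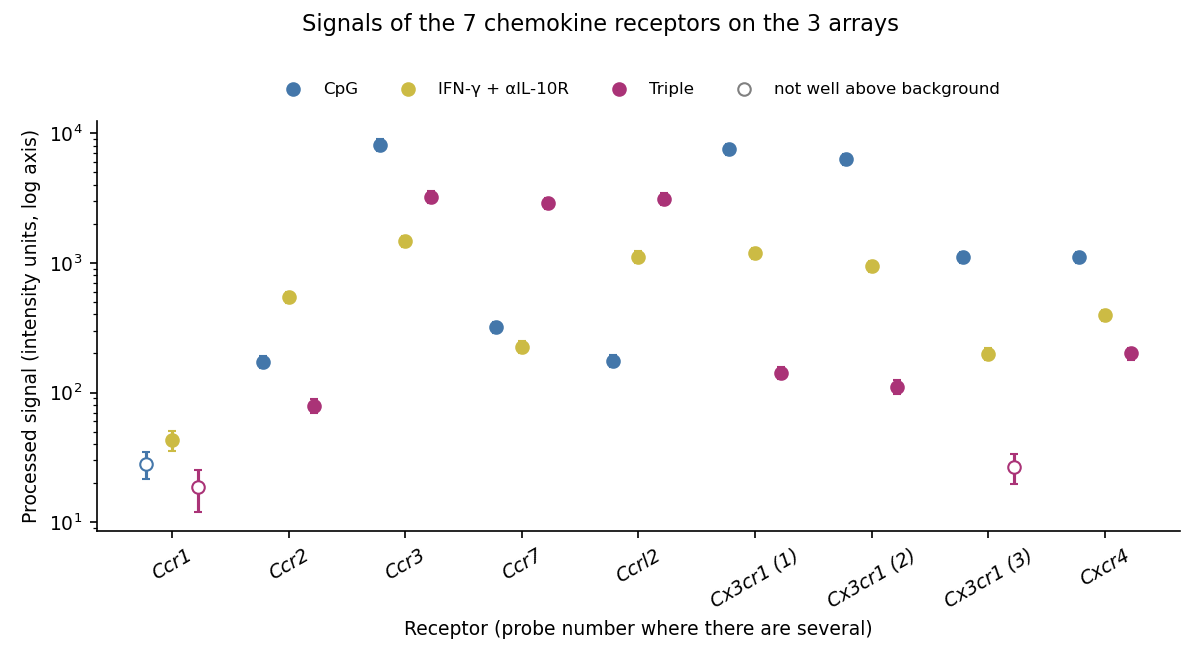
Processed signal (intensity units, log axis) of each probe of the 7 receptors on the CpG, IFN-γ + αIL-10R, and Triple arrays, 1 point per array, with bars for the software's error of that signal; open points were not well above background. Ccr7 and Ccrl2 were highest in Triple, Cx3cr1, Ccr3, and Cxcr4 were highest in CpG, and Ccr2 was highest in IFN-γ + αIL-10R.

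Ccr7 is the receptor for Ccl19 and Ccl21. Its signal was 319 ± 32.4 in CpG, 225 ± 23.3 in IFN-γ + αIL-10R, and 2892 ± 289 in Triple. Only the Triple array was high, and the CpG and IFN-γ + αIL-10R arrays were close to each other. Triple was 13.2-fold higher than IFN-γ + αIL-10R (log2 3.72 ± 0.10) and 9.43-fold higher than CpG (log2 3.24 ± 0.10), whereas CpG was 1.40-fold higher than IFN-γ + αIL-10R (log2 0.48 ± 0.12). Of 16512 genes that were well above background on every array, 0.339% had a higher fold of Triple over IFN-γ + αIL-10R than Ccr7. Genes near background on any array are left out of this set, however large their fold. Ccr7 also marks dendritic cells, and 6 of 10 dendritic cell markers (Ccr7 and Xcr1 among them) were well above background in Triple, against 5 of 10 in IFN-γ + αIL-10R and 3 of 10 in CpG. Zbtb46, a transcription factor of conventional dendritic cells, had 25.1 in CpG (not well above background), 36.3 in IFN-γ + αIL-10R, and 133 in Triple. Clec9a, a lectin of cross-presenting dendritic cells, had another order, with 5.35 in CpG (not well above background), 1963 in IFN-γ + αIL-10R, and 152 in Triple. Flt3, Cd209a, Itgae, and Dpp4 were not well above background on any array. The summed signal of the list, most of which came from Siglech, was 38411 in CpG, 39506 in IFN-γ + αIL-10R, and 34455 in Triple. These are values of the brightest probe of each gene, and the other probes of Zbtb46 and Siglech gave no fold in any comparison. The part of dendritic cells in the Ccr7 signal was not tested, and in bulk RNA fewer cells of a type cannot be told apart from less RNA per cell.

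Ccr2 is the receptor for Ccl2, Ccl7, and Ccl12 and is needed for monocytes to leave the bone marrow. Its signal was 172 ± 18.1 in CpG, 541 ± 54.4 in IFN-γ + αIL-10R, and 79.1 ± 9.95 in Triple. IFN-γ + αIL-10R was thus the high array and Triple the low one. Triple was 6.67-fold lower than IFN-γ + αIL-10R (log2 -2.74 ± 0.25), and CpG was 3.18-fold lower (log2 -1.67 ± 0.15). Triple was 2.09-fold lower than CpG (log2 -1.07 ± 0.27), which is within 1 SD of the 2-fold threshold. With normexp background correction that last value was -0.61, and it also lay just inside the threshold with median scaling (-0.99). The Ccr2 spot of the IFN-γ + αIL-10R array carried the software's outlier mark for its local background, a background that does not enter the processed signal. Without such spots Ccr2 has no value.

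Ccr3, best known as the eotaxin receptor of eosinophils, had 8120.2 ± 812 in CpG, 1461 ± 146 in IFN-γ + αIL-10R, and 3236 ± 324 in Triple. All 3 arrays were well above background, with CpG highest and Triple between the others. CpG was 5.47-fold higher than IFN-γ + αIL-10R (log2 2.45 ± 0.07), Triple was 2.27-fold higher than IFN-γ + αIL-10R (log2 1.18 ± 0.08), and Triple was 2.41-fold lower than CpG (log2 -1.27 ± 0.07). The eosinophil markers Epx and Prg2, both granule proteins, as well as Prg3 and Il5ra, were not well above background on any array. The other 2 of the 6 were Ear6, with 40.4 to 49.3, and Siglecf, with 136 in CpG and no signal well above background on the other arrays. The summed signal of the 6 markers was 219 in CpG, 104 in IFN-γ + αIL-10R, and 78.4 in Triple.

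Ccr1, a receptor for Ccl3 and Ccl5, had 28.1 ± 6.61 in CpG, 42.9 ± 7.62 in IFN-γ + αIL-10R, and 18.7 ± 6.75 in Triple. Only the IFN-γ + αIL-10R signal was well above background. It was at least 1.59-fold higher than Triple and at least 1.55-fold higher than CpG, and no fold is given between Triple and CpG. At this brightness the SD between replicate spots was 0.43 in CpG, 0.36 in IFN-γ + αIL-10R, and 0.65 in Triple on the log2 scale. G or C made up 21.7% of the bases of the only Ccr1 probe, against 35% to 43.3% in the other member probes. Whether this lowered the Ccr1 signals was not tested.

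Cx3cr1 is the receptor for the membrane-bound chemokine fractalkine (Cx3cl1) and marks patrolling monocytes and several tissue macrophages. Probe 1 had 7523 ± 752 in CpG, 1181 ± 118 in IFN-γ + αIL-10R, and 143 ± 15.9 in Triple. The order was the same for probe 2, with 6280 ± 628 in CpG, 940 ± 94.2 in IFN-γ + αIL-10R, and 111 ± 13.1 in Triple. It was the same for the separate probe 3, with 1103 ± 110 in CpG, 198 ± 20.9 in IFN-γ + αIL-10R, and 26.6 ± 6.97 in Triple, the last not well above background. The arrays were thus far apart and in 1 order by every probe. The spot of probe 1 in Triple carried the outlier mark for its local background, which probes 2 and 3 did not. Without it, probe 2 stood for the gene, and the log2 fold of Triple over CpG was -5.77. That value repeats the probe 2 fold below and is not a further check. By probe 1, Triple was 50.7-fold lower than CpG (log2 -5.66 ± 0.18), 54.3-fold lower by probe 2, and at least 39.9-fold lower by probe 3. Of those 16512 genes, 0.0182% had a lower fold of Triple over CpG than Cx3cr1, but genes at background in Triple were not ranked. Triple was 8.08-fold lower than IFN-γ + αIL-10R by probe 1 (log2 -3.01 ± 0.18), 8.25-fold by probe 2, and at least 7.28-fold by probe 3. CpG was 6.27-fold higher than IFN-γ + αIL-10R by probe 1 (log2 2.65 ± 0.08), 6.58-fold by probe 2, and 5.48-fold by probe 3.

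Cxcr4, the receptor for Cxcl12 that retains leukocytes in bone marrow, had 1105 ± 111 in CpG, 393 ± 39.8 in IFN-γ + αIL-10R, and 200 ± 20.9 in Triple. Like Cx3cr1, it was highest in CpG and lowest in Triple, with smaller distances between the arrays. CpG was 2.77-fold higher than IFN-γ + αIL-10R (log2 1.47 ± 0.10), and Triple was 5.31-fold lower than CpG (log2 -2.41 ± 0.16). Triple was 1.92-fold lower than IFN-γ + αIL-10R (log2 -0.94 ± 0.17), which is within 1 SD of the 2-fold threshold. That fold was past the threshold relative to Actb (log2 -1.03) and with spike-in scaling (log2 -1.09).

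Ccrl2 had 176 ± 18.7 in CpG, 1116 ± 112 in IFN-γ + αIL-10R, and 3119 ± 312 in Triple. CpG was the low array and Triple the high one, the reverse of the order of Cxcr4 and Cx3cr1. Triple was 18.5-fold higher than CpG (log2 4.21 ± 0.14) and 2.87-fold higher than IFN-γ + αIL-10R (log2 1.52 ± 0.08). CpG was 6.45-fold lower than IFN-γ + αIL-10R (log2 -2.69 ± 0.14). Of the 16512 genes, 0.248% had a higher fold of Triple over CpG than Ccrl2.

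**Figure D2:**
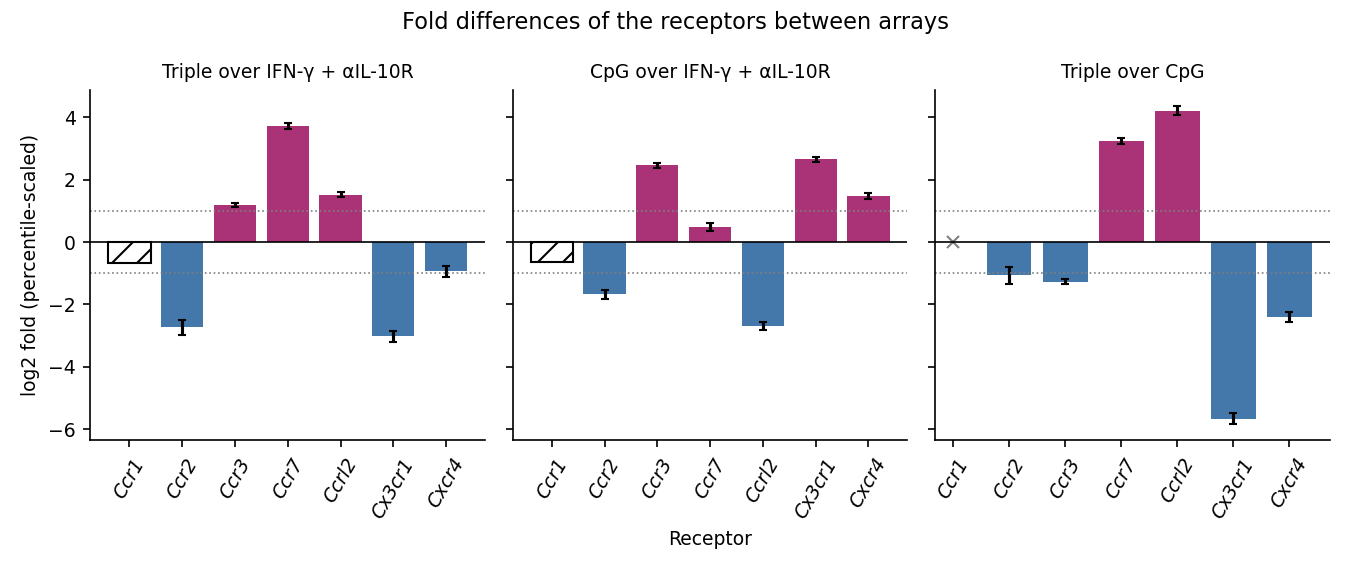
Log2 fold of each receptor by its brightest probe in the 3 comparisons, with bars for the SD expected from spot noise; dotted lines mark 2-fold, hatched bars are lower bounds on the difference, and a cross marks a receptor with no fold. Cx3cr1 (log2 -5.66) and Ccrl2 (log2 4.21) had the most extreme folds of Triple over CpG among the 7.

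The median log2 fold over the 7 receptors was -0.67 for Triple over IFN-γ + αIL-10R, where that of all genes with a fold was -0.04. This receptor median is the value of Ccr1, a lower bound on the difference, because its Triple signal was not well above background. With no filter on dim signals the Ccr1 value was -1.17, and the middle value was then that of Cxcr4 (-0.94). The median thus depends on the background limit. For CpG over IFN-γ + αIL-10R the medians were 0.48 for the 7 receptors and 0.01 for all genes. For Triple over CpG they were -1.17 for the 6 receptors with a fold and -0.06 for all genes. These medians stand between receptors that differed in opposite directions. Ccr3 was higher in both CpG and Triple than in IFN-γ + αIL-10R, and Ccr2 was lower in both. Cx3cr1 was higher in CpG and lower in Triple than in IFN-γ + αIL-10R, and Ccrl2 was the opposite.

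**Figure D3:**
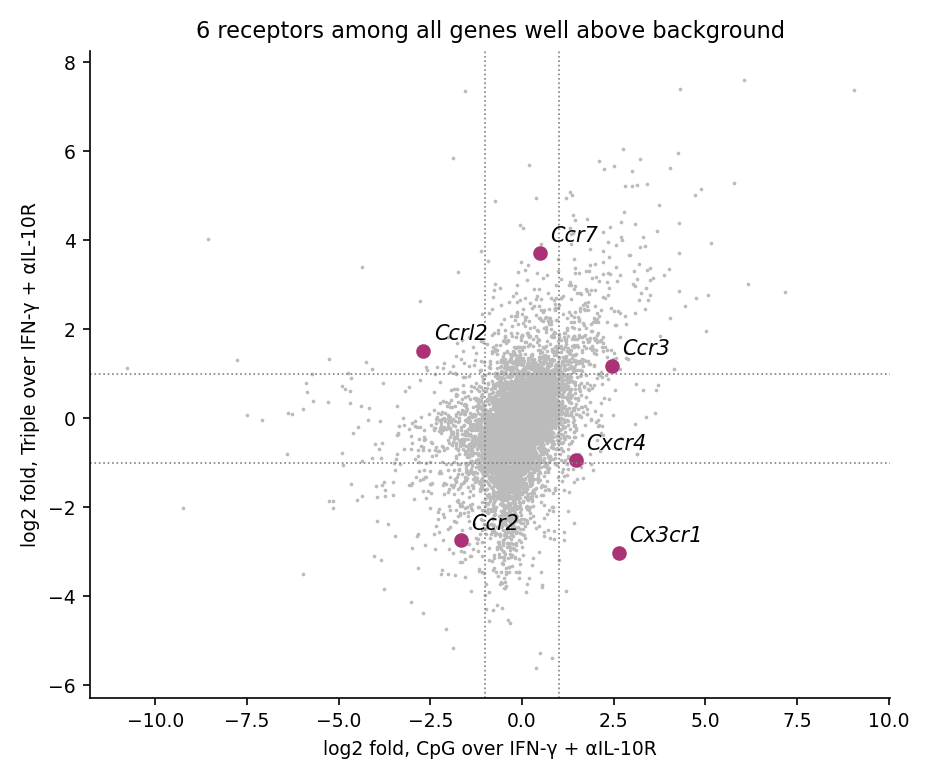
Log2 fold of CpG (x axis) and of Triple (y axis) over IFN-γ + αIL-10R for 16512 genes that passed the background limit on every array (grey) and for 6 of the receptors (named points); the axes share the IFN-γ + αIL-10R array. Cx3cr1 lies at 2.65 and -3.01 and Ccrl2 at -2.69 and 1.52, in opposite corners, and Ccr7 lies at 0.48 and 3.72.

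Genes with the most similar pattern were looked for among 11047 genes with a RefSeq mRNA probe well above background on all 3 arrays, by the distance between their 3 log2 values, each centred on its own mean. The closest to Ccr2 were Klf2, a transcription factor of quiescent leukocytes (distance 0.06), and Rhod, a small GTPase (0.17). Klf2 had 1518 in CpG, 4926 in IFN-γ + αIL-10R, and 683 in Triple. The closest to Ccr3 were Mapk11, a p38 kinase (0.08), and Dio2, a deiodinase of thyroid hormone (0.11), and the closest to Cxcr4 were B3gnt9 (0.10) and Thbd, which is thrombomodulin (0.15). With 3 values per gene such matches are common: 38 genes lay within 0.5 of Ccr2, 32 within 0.5 of Ccr3, and 39 within 0.5 of Cxcr4.

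The remaining receptors had fewer neighbours. Within 0.5 there were 6 genes for Ccr7, led by the transcription factor Maff (0.15) and the heat shock gene Hspa1a (0.24), whose near-identical copy Hspa1b may share its probe signal. There were 2 genes for Ccrl2, the lipid-presenting molecule Cd1d1 (0.38) and the immediate early factor Egr1 (0.48). There were 0 genes for Cx3cr1, whose closest were Nxpe5 (1.03) and Rgs18, an inhibitor of G-protein signalling in blood cells (1.28). Rgs18 had 3785 in CpG, 1859 in IFN-γ + αIL-10R, and 199 in Triple, the same order as Cx3cr1 over a smaller range.

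Ccr1, Ccr3, and Ccr2 lie in a cluster of receptor genes on chromosome 9, of which 7 are described here, over 333 kb. Neighbours in it had different patterns. The Ccr3 and Ccr2 probes lay at 255 and 333 kb from the Ccr9 probe, and CpG was 5.47-fold higher than IFN-γ + αIL-10R for Ccr3 and 3.18-fold lower for Ccr2. Ccr1l1, next to Ccr1 at 202 kb, had between 80.4 and 113. Xcr1, a receptor of cross-presenting dendritic cells, was well above background only in Triple, with 60.7. Ccrl2, Cx3cr1, and the cluster are all on chromosome 9, but the first 2 lie apart from it, whereas Cxcr4 is on chromosome 1 and Ccr7 is on chromosome 11.

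**Figure D4:**
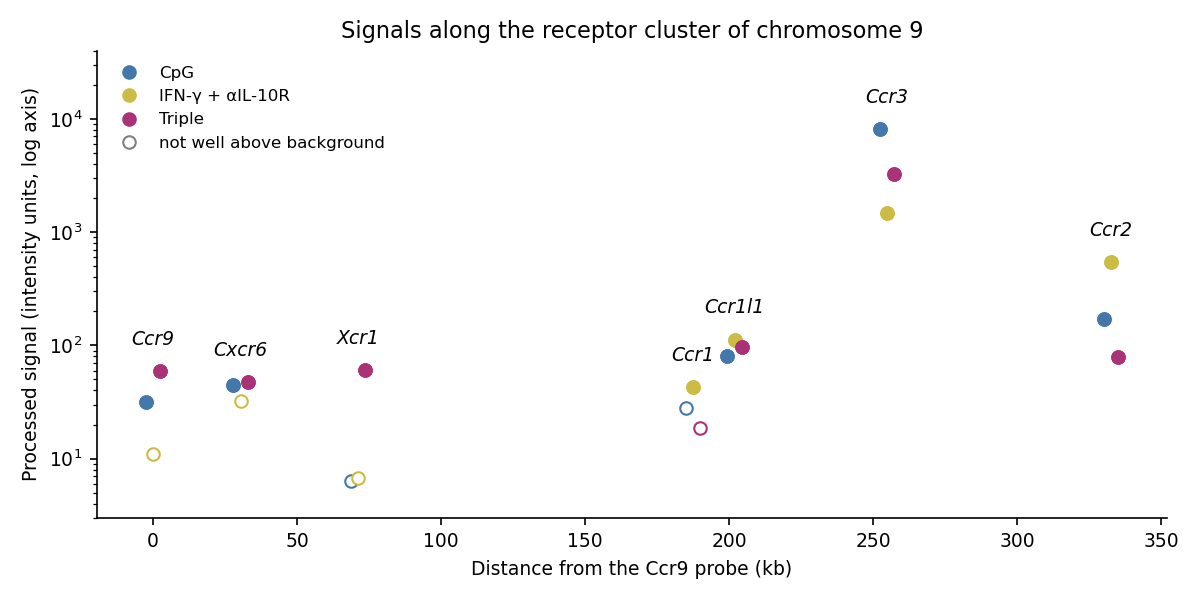
Processed signal (intensity units, log axis) of 7 receptor genes on the 3 arrays against the distance of their probes from the Ccr9 probe in kb; open points were not well above background, and points of 1 gene are shifted sideways by array. Ccr3 and Ccr2 had opposite orders of CpG and IFN-γ + αIL-10R.

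The 250 bases before the transcription start, taken from RefSeq on GRCm38.p6, are shown for Ccrl2 and Ccr3. These were the members above background on every array with a match to the NF-kB consensus, the site of the factor that TLR9 activates, and capitals mark the match.
Ccrl2, chr9:111057519-111057768, minus strand: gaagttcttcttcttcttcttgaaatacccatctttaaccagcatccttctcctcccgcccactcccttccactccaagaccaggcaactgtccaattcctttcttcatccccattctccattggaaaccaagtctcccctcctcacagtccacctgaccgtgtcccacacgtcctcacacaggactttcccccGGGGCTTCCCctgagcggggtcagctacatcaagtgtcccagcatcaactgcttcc
Ccr3, chr9:124021721-124021970, plus strand: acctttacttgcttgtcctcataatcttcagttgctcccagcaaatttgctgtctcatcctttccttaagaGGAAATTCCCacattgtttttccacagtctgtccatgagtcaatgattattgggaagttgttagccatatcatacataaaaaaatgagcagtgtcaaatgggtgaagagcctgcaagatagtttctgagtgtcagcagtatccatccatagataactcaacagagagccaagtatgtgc
The table held 8 promoters for 6 of the members and was searched on both strands over 300 bases, 250 before and 50 after each start. Of these, 3 held the NF-kB consensus (1 of the Ccrl2 starts, Ccr3, and Ccr1), as did 8.46% of 32851 promoters. The AP-1 motif TGANTCA was found in 1, that of Ccr3, where it did not overlap the NF-kB match, and in 7.81% of all promoters. The GAS motif TTCNNNGAA was found in 0 of the 8 and in 8.30% of all promoters. The ISRE core GAAANNGAAA was found in 0 of the 8 and in 3.44% of all promoters. Ccrl2 and Ccr3, which share the NF-kB match, differed in opposite directions for CpG over IFN-γ + αIL-10R, with log2 folds of -2.69 and 2.45.

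Of 17 other chemokine receptors on the array, 7 were well above background on at least 1 array and 10 on none. Among the 7 of these with a fold, Triple was more than 2-fold higher than IFN-γ + αIL-10R for 2 (6.6% of all genes tested). It was lower for 1 of them (9.3% of all genes). The lower receptor was Cxcr3, the receptor for the interferon-induced chemokines Cxcl9 and Cxcl10, which had 854 in CpG, 2647 in IFN-γ + αIL-10R, and 18.1 in Triple (not well above background). It had the same order of arrays as Ccr2, and Triple was at least 98.0-fold lower than IFN-γ + αIL-10R. The higher receptors were Xcr1 and Ccr9, both at most 60.7 in any array.

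The ligands of the 7 receptors were covered by 15 of 18 listed genes. Triple was more than 2-fold higher than IFN-γ + αIL-10R for 5 of the 12 with a fold (6.6% of all genes tested) and lower for 2 (9.3%). It was higher than CpG for 7 of the 13 with a fold (7.54% of all genes) and lower for 3 (8.37%). CpG was higher than IFN-γ + αIL-10R for 3 of the 12 with a fold (5.04% of all genes) and lower for 2 (5.84%). For the Ccr2 ligands, signals were higher in Triple, where Ccr2 itself was lowest. Ccl2 had 62313 in CpG, 66447 in IFN-γ + αIL-10R, and 158996 in Triple, Ccl7 was 3.90-fold higher in Triple than in IFN-γ + αIL-10R, and Ccl12 was 2.10-fold higher. Ccl3, a ligand of Ccr1, was 16.1-fold higher in Triple than in IFN-γ + αIL-10R, and Ccl4, a related chemokine, was 9.03-fold higher. Ccl6, another ligand of Ccr1, was 4.88-fold lower in Triple than in IFN-γ + αIL-10R. Cx3cl1 had 138 in CpG, 113 in IFN-γ + αIL-10R, and 40.8 in Triple, and was thus lowest where Cx3cr1 was lowest. The eotaxins Ccl11 and Ccl24, ligands of Ccr3, were not well above background on any array. Cxcl12 was so in Triple alone (49.1), and the Ccr7 ligand Ccl19 had between 40.5 and 52.3.

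**Figure D5:**
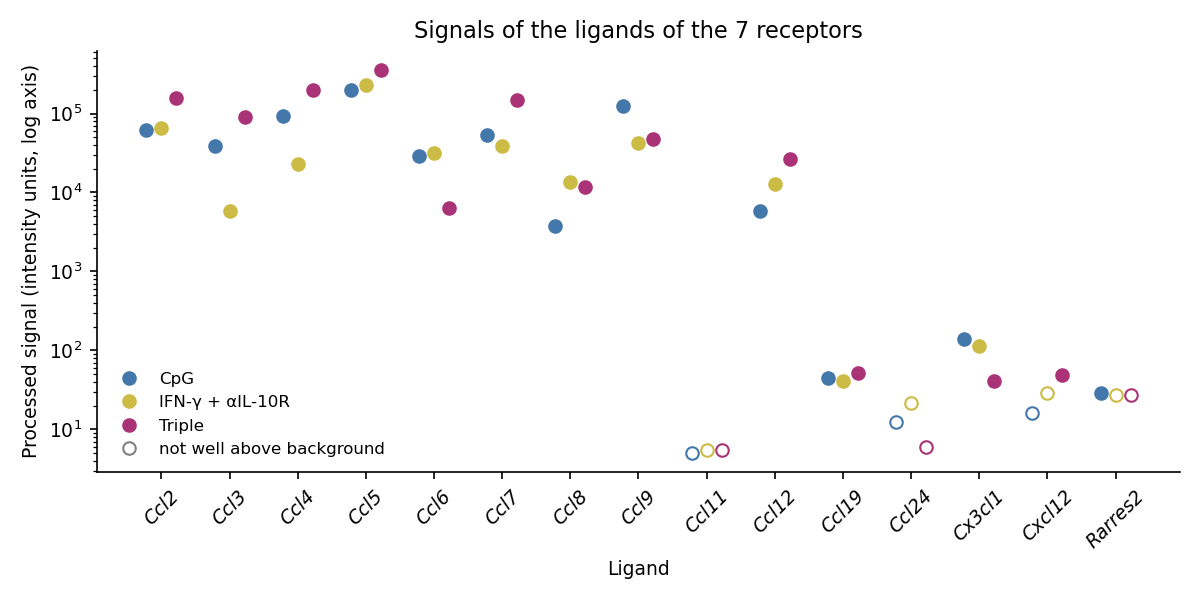
Processed signal (intensity units, log axis) of 15 ligand genes on the 3 arrays; open points were not well above background, and levels of different genes are not comparable with each other. Ccl2, Ccl3, Ccl4, and Ccl7 were highest in Triple, whereas Ccl11 and Ccl24 were not well above background on any array.

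Of 14 receptors for other chemoattractants, 11 had a fold in each comparison. Triple was more than 2-fold higher than IFN-γ + αIL-10R for 2 of the 11 (6.6% of all genes tested) and lower for 3 (9.3%). It was lower than CpG for 4 of the 11 (8.37% of all genes). The formyl peptide receptors Fpr1 and Fpr2 were the higher ones, Fpr1 with 20789 in CpG, 311 in IFN-γ + αIL-10R, and 58951 in Triple. S1pr1, the sphingosine-1-phosphate receptor that guides exit from lymphoid tissue, had 727 in CpG, 111 in IFN-γ + αIL-10R, and 79.3 in Triple. It shares with Cx3cr1 and Cxcr4 the order of the arrays. Gpr183, an oxysterol receptor, had 403 in CpG, 94.9 in IFN-γ + αIL-10R, and 7.04 in Triple, the last not well above background.

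The machinery downstream of the receptors was covered by 31 genes, of which 30 were well above background on at least 1 array. Triple was more than 2-fold higher than IFN-γ + αIL-10R for 6 of the 29 with a fold (6.6% of all genes tested). It was lower for 3 of these 29 (9.3%), and 20 lay inside 2-fold. The share of lower ones was thus near that of all genes. The higher ones were led by Grk3, a receptor kinase (Adrbk2 on the array, 6.14-fold), Pik3r5, a subunit of PI3Kγ (4.72-fold), and Rac2, a GTPase of leukocyte movement (3.54-fold). The lower ones were Rgs2 (14.6-fold), Rgs18 (9.13-fold), and Rgs10 (3.15-fold), which shorten signals of G proteins. Relative to CpG, 30 genes had a fold. Triple was higher for Rgs1 only (7.54% of all genes) and lower for 4 genes (8.37% of all genes), led by Rgs18 (18.3-fold). CpG relative to IFN-γ + αIL-10R was higher for 9 of the 30 with a fold (5.04% of all genes) and lower for 2 (5.84% of all genes). The median log2 fold of the list for Triple over IFN-γ + αIL-10R was 0.17, against -0.04 for all genes.

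All 10 macrophage markers, among them Adgre1 and Csf1r, were well above background on each array, with summed signals of 772478 to 893027. Markers of other cells were partly well above background. Of 9 neutrophil markers, 5 in CpG, 4 in IFN-γ + αIL-10R, and 4 in Triple were well above background (summed signals 3861, 9464, and 4886), and Ngp, Ltf, and Mpo were so on no array. Ly6g had 555 in CpG, 7699 in IFN-γ + αIL-10R, and 2658 in Triple, Elane had 2839, 1615, and 1539 in that order, and S100a8 had 297, 55.7, and 517. S100a9 differed from S100a8 in being lowest in Triple, with 58.0, 38.3, and 8.10, the last not well above background. Of 7 B cell markers, 4, 3, and 3 were well above background in the same order (summed signals 59664, 19015, and 43520, mostly Blnk, which macrophages also express), and Ms4a1 and Pax5 were so on no array. Cd79b, a B cell receptor chain, had 801 in CpG, 182 in IFN-γ + αIL-10R, and 108 in Triple, the order of Cxcr4. Cd79a, on the same list, had another order, with 66.6 in CpG, 75.5 in IFN-γ + αIL-10R, and 43.6 in Triple. Of 10 T and NK cell markers, 4 were well above background on every array (summed signals 4865, 4950, and 2967), without Cd3d, Cd3g, Cd8a, or Ncr1. They were Lck, Cd3e (806 to 869), Cd4 (1646 to 1943), and Cd28, which had 2223 in CpG, 1927 in IFN-γ + αIL-10R, and 156 in Triple. Of 7 basophil and mast cell markers, 1 was (summed signals 84.8, 118, and 93.1), without Mcpt8, Cpa3, or Fcer1a. The part of these cells in the receptor signals was not tested.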

How the data were processed

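RNA of BMDMs from 3 conditions, with 1 sample each, was labeled with Cy3 and hybridized to Agilent 8 × 60K mouse arrays. For each array the authors deposited the scanner file of Agilent Feature Extraction (version 10.10.1.1), in which the processed signal is a linear intensity after subtraction of a fitted background surface. They also deposited a table of log2 values, which differed from the log2 of the processed signals by a fixed constant for each array (signals of 368, 373, and 338). The median of its columns was -4.26, -4.38, and -4.27. The scale, direction, and centring of that table were thereby settled, and it was used as an alternative.

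Spots of controls and those with an outlier mark of the spot itself were left out, and replicate spots were averaged on the log2 scale. Because the share of probes well above background averaged 44.2%, less than 50%, the 75th percentile subtracted from each array was that of the 22382 probes detected on every array. The brightest probe by mean stood for its gene. For some genes, among them Zbtb46, Siglech, Siglecf, Cd4, Cd79a, Ccr9, and Cxcl12, the other probes gave no fold in any comparison. Signals not well above background were replaced by the lowest detected signal of their array where they were smaller, and a fold against such a signal, replaced or not, is written as at least its value. A difference was counted if it was more than 2-fold and the brighter array was well above background, and the genes tested were those well above background on at least 1 of the arrays compared. All 7 accessions matched their symbols in RefSeq. Genes of the lists of other receptors, ligands, and signalling could be named if they differed more than 2-fold in a comparison (the largest 3 in each direction where there were more), as could the 2 genes nearest to each receptor. Not every gene that met this rule is named. Cell type markers and the dim or unchanged genes were chosen after their values were seen. The members and lists were chosen with earlier results of these data known. Precision is limited by how far a signal stood above background and by having 3 arrays in all.

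Alternatives were normexp background correction (offset 50), other scalings and filters, other ways to combine probes, and thresholds of 1.5-fold and 3-fold. The code was tested on simulated arrays. Calculations used Python 3.11.15, numpy 2.4.6, pandas 2.3.3, R 4.3.3, and limma 3.58.1.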

Additional observations from a re-analysis of the deposited data

How the results depend on the processing

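No paired analysis was possible because a condition had a single array. There were 15 other settings and 1 more that was chosen after the data were seen. Folds were recomputed in all of them except the 1.5-fold and 3-fold thresholds, which change counts only. In these, 0 receptor folds past 2-fold changed sign, and 243 of 275 recomputed folds moved by less than the spot noise. Part of the 243 could not move. Receptors with 1 probe keep their fold however probes are combined, and filters on dim signals leave folds between detected signals as they were. Relative to the main counts of receptors, the 1.5-fold threshold gave 4 lower in Triple than in IFN-γ + αIL-10R, which added Ccr1 and Cxcr4. It gave 3 lower in CpG, which added Ccr1. The 3-fold threshold gave 1 higher in Triple and 2 higher in CpG than in IFN-γ + αIL-10R, and 2 lower in Triple than in CpG. Leaving out spots whose local background was marked as an outlier removes Ccr2. With them left out, 1 receptor was lower in Triple and 1 in CpG than in IFN-γ + αIL-10R, and 3 were lower in Triple than in CpG. Calls of single receptors also changed. The Ccr2 fold of Triple over CpG lay inside 2-fold with normexp correction (-0.61), median scaling (-0.99), and the 75th percentile over all probes (-0.999). For Triple over IFN-γ + αIL-10R, Cxcr4 passed 2-fold with spike-in scaling (-1.09) and relative to Actb (-1.03). Ccr1 passed it with no filter on dim signals (-1.17). The cause of these changes was not tested, except where spots or thresholds themselves set the count.

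Over all genes, counts depended on the treatment of dim signals. The number higher in Triple than in IFN-γ + αIL-10R was 1238, and 833 with normexp correction, 2625 with no filter, 2527 at 1.5-fold, and 645 at 3-fold. The number lower was 1745, and 1150 with normexp correction, 3183 with no filter, 3247 at 1.5-fold, and 855 at 3-fold. For CpG over IFN-γ + αIL-10R, 956 were higher (584, 2475, 2134, and 439 in the order normexp, no filter, 1.5-fold, 3-fold) and 1109 lower (736, 2559, 2425, and 536). For Triple over CpG, 1435 were higher (2869, 2721, and 733 for the last 3) and 1593 lower (969, 3129, 3135, and 732).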
